A study of Mus musculus with 4 samples.

Results

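H3K27ac, a histone acetylation that marks active promoters and enhancers, was examined at 10 ephrin and Eph receptor genes in liver sinusoidal endothelial cells (LSECs) of the mouse. The 10 genes, 4 ephrins (*Efna1*, *Efna5*, *Efnb1*, and *Efnb2*) and 6 receptors (*Epha2*, *Epha4*, *Ephb1*, *Ephb2*, *Ephb3*, and *Ephb4*), were taken by name, with no threshold on their peaks, from 21887 protein-coding genes with a position in the GRCm38 annotation. Peaks were deposited for 2 ChIP-Seq libraries, called replicates 2 and 3 after their library names, and the 2 input libraries with the same numbers were not analysed here. Both libraries carry the same labels, the cell type and the antibody, so there is 1 condition and no contrast between treatments. The records give no genotype, strain, age, sex, or treatment of the mice. The study's methods describe LSECs purified with anti-CD146 beads and held in culture before harvest. Some mice named there carried a floxed *Col4a1* allele (fl/wt), with or without an inducible Cre driven by the endothelial *Cdh5* promoter (CreERT2). Others carried *dCas9-KRAB* with that Cre. Treatments named there include tamoxifen, guide RNAs delivered by a virus, and carbon tetrachloride or olive oil. Which of these mice and treatments gave these libraries is not stated. Nothing states whether the 2 libraries came from separate animals, so the spread between them may be technical. Each value below belongs to a single library.

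Ephrins are ligands held on the cell surface, and Eph receptors are the receptor tyrosine kinases that bind them on a neighbouring cell. Class A ephrins are anchored through a lipid, class B ephrins span the membrane, and signals can run in both directions, into the cell with the receptor and back into the cell with the ligand. In blood vessels, *Efnb2* is known as a marker of arterial endothelium and *Ephb4* as a marker of venous endothelium, and contact between the 2 sorts of cells keeps them apart.

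The mark was uneven across the family. *Efnb2*, *Ephb4*, *Epha2*, *Efnb1*, and *Efna1* had a region within 1 kb of a gene end with a peak of both libraries. *Ephb3* and *Epha4* had a 5′ end peak in replicate 3 only. *Efna5*, *Ephb1*, and *Ephb2* had no peak within 1 kb of either end in either library. The promoter sequences of 7 of the genes are shown first, as those of the genes with a 5′ peak of both libraries, with *Ephb3* for a peak in 1 library and *Ephb1* for a gene without any peak. Each is the 250 bases before a transcription start in RefSeq (GRCm38.p6), written 5′ to 3′ on the strand of the gene. Capitals mark letter matches to 4 motifs, read on either strand, so that a match on the opposite strand appears as its reverse complement. The motifs are the GC box (GGGCGG), the RBPJ motif (TGGGAA), the TEAD motif (GGAATG), and the TATA box (TATAAA). The ETS core (CCGGAA), the AP-1 motif (TGANTCA), and the GATA motif (AGATAA) were searched in the same way and had no match in these 7 windows. The windows are chr8:8661243-8661492 (minus strand) for *Efnb2*, chr5:137349859-137350108 (plus) for *Ephb4*, chr4:141300971-141301220 (plus) for *Epha2*, chrX:99135811-99136060 (plus) for *Efnb1*, chr3:89279646-89279895 (minus) for the inner start of *Efna1*, chr16:21204545-21204794 (plus) for *Ephb3*, and chr9:102354694-102354943 (minus) for *Ephb1*.
Efnb2: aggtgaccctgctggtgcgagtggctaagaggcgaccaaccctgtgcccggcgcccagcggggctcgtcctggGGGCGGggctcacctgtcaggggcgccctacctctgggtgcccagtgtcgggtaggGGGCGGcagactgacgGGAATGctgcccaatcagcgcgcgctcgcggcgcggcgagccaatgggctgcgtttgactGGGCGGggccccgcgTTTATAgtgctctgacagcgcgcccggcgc
Ephb4: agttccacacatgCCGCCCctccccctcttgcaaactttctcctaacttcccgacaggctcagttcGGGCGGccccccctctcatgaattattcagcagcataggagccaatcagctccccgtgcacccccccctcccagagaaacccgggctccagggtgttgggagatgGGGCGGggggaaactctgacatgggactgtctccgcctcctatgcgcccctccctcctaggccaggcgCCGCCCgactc
Epha2: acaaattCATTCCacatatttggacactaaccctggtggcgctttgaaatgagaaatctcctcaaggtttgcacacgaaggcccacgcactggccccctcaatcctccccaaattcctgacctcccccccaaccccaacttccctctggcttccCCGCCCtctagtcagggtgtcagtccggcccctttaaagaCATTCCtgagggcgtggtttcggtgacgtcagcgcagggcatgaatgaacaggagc
Efnb1: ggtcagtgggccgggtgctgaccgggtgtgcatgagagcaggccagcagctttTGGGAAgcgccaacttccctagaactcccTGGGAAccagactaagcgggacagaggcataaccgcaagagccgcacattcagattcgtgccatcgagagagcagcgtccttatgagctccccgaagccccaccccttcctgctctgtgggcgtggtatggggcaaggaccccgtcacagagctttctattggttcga
Efna1 inner start: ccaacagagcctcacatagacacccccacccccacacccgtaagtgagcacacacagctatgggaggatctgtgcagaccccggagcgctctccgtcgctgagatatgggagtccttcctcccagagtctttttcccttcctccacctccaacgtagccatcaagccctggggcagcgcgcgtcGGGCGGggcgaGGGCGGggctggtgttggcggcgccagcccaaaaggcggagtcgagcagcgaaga
Ephb3: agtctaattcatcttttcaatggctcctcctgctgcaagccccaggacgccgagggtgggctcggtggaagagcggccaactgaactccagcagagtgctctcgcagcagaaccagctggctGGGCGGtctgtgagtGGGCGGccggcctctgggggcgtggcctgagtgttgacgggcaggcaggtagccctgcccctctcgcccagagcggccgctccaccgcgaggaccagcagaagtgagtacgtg
Ephb1: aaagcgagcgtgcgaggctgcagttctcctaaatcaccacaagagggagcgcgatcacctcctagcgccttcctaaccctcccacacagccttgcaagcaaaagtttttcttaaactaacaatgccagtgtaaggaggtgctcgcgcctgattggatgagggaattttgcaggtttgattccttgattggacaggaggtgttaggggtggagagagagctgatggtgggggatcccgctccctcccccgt

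RefSeq gave 11 such windows for the 10 genes, since *Efna1* has an outer and an inner start. A peak of both libraries touched 5 of the 11, a peak of replicate 3 alone touched 3, and no peak touched 3. Among all 21263 protein-coding windows, 40.2% were touched by both libraries, 2075 by a peak of replicate 3 only, and 10629 by no peak. The 5 windows with both libraries were not alike in composition. That of *Efnb2* held 27 CpG dinucleotides and 72.0% G and C, whereas that of *Epha2* held 9 and 55.6%. The median of all 8557 windows with both libraries was 18 CpG and 62.0% G and C, and that of the 10629 windows without a peak was 3 CpG and 49.2%. The window richest in CpG, that of *Efna5* with 32 CpG and 74.8% G and C, had no peak in either library. The GC box letters occurred in 8 of the 11 windows, 4 times each in *Ephb4* and *Efna5*, and in 42.6% of all windows. The RBPJ letters occurred in *Efnb1*, where they were matched 2 times, and *Epha4*, and in 20.9% of all windows. The TEAD letters occurred in *Epha2* and *Efnb2* (11.7% of all windows), the TATA box letters in *Efnb2* (11.6%), and the ETS core letters in *Ephb2* (15.0%). The AP-1 and GATA letters occurred in none of the 11 windows, against 6.13% and 8.81% of all windows. A match of letters describes the sequence only.

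Across the list of replicate 2, 26975 peaks were deposited, and across that of replicate 3, 64498. The depth of the libraries is unknown. As a check of the cell type, 11 of 17 LSEC markers had a gene-end region of both libraries, against 3 of 35 markers of lymphocytes, cholangiocytes, Kupffer cells, hepatocytes, and hepatic stellate cells. Those 3 were *Trf*, *Cd68*, and *Cd79a*. The 6 LSEC markers without one were *Stab2*, *Mrc1*, *Clec4g*, *Tek*, *Erg*, and *Mcam*, which encodes CD146, and 5 of these 6 had a gene-end region in replicate 3. Replicate 3 had a gene-end region at 7 of the 35, and the part of other cells in the peaks described here was not tested.

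A gene-end region of both libraries was present at 5 of the 10 genes, at 3 of 4 ephrins and 2 of 6 receptors. Over all protein-coding genes, 44.1% had such a region, so the share of the 10 genes was near the background. With a reciprocal overlap of at least 50% in place of 1 bp the count was 0, as each replicate 2 peak there was under 50% as wide as the replicate 3 peak. Counted by library, replicate 2 had a peak in the gene-end region of these 5 genes (background, 44.1%), at *Efna1* only because its peak was merged with that of replicate 3 (4 genes by replicate 2 peaks alone), and replicate 3 at 7 (background, 53.9%). Distal regions, which lay in the gene body or up to 10 kb outside it and more than 1 kb from both ends of the gene, carried a peak of both libraries at 5 of the 10 genes (background, 39.3%) and a replicate 3 peak at 7 (background, 60.6%). *Ephb1* was the only one of the 10 without any peak in its window.

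**Figure D1:**
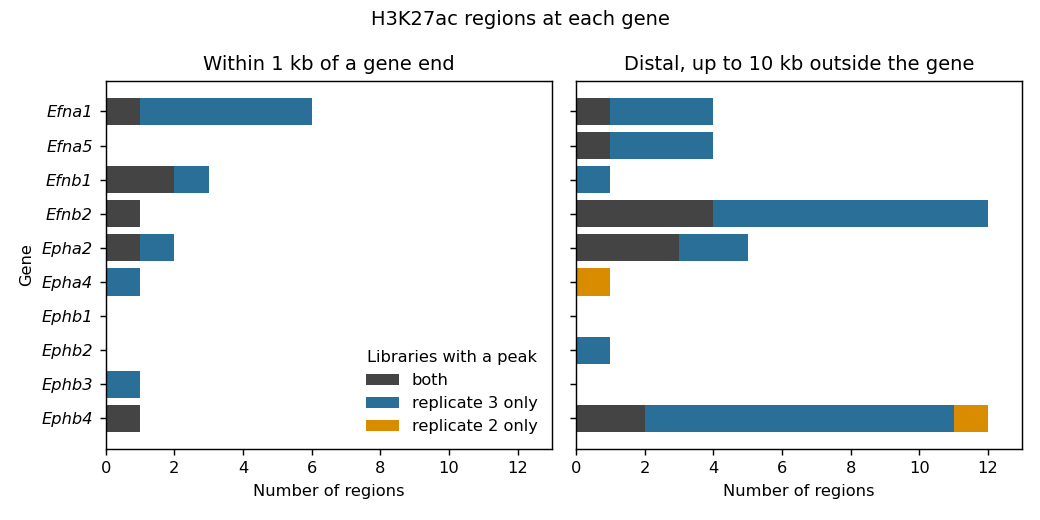
Number of H3K27ac regions (x axis) at each of the 10 genes (y axis), within 1 kb of a gene end (left) and distal (right), coloured by the libraries that had a peak. *Efnb2* and *Ephb4* had the most distal regions, 12 each, of which 4 and 2 had a peak of both libraries, while *Ephb1* had none of either kind. Those in the flanks of *Ephb4* lie within 2.62 kb of an end of *Gm52791* or *Zan* and cannot be given to *Ephb4* alone.

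In all, the windows of the 10 genes held 55 regions, 15 at gene ends and 40 distal. Of these, 17 had a peak of both libraries, 36 a peak of replicate 3 only, and 2 a peak of replicate 2 only. Counted as peaks, 19 of 21 replicate 2 peaks and 17 of 53 replicate 3 peaks overlapped a peak of the other list. The share for replicate 2 was 90.5% (95% Wilson interval, 71.1% to 97.3%), below the 99.2% of its whole list. The share for replicate 3 was 32.1% (95% Wilson interval, 21.1% to 45.5%), and that of its whole list was 37.7%. Replicate 3 peaks that overlapped replicate 2 had a median fold enrichment of 21.0 at these genes, below the 27.03 of the whole list, and those that did not had 5.79, against 6.20. None of the 21 replicate 2 peaks and 2 of the 53 replicate 3 peaks, those at the 5′ ends of *Efnb1* and *Efnb2*, were in the highest 10% of their list by fold enrichment.

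*Efnb2*, the class B ephrin of arterial endothelium, had the broadest region of the family. The gene spans 44.0 kb (chr8:8617235-8661242, minus strand). A single replicate 3 peak of 2336 bp covered its 5′ end at chr8:8659885-8662220, with a fold enrichment of 48.9, at the 91.2nd percentile of that list. Within it, replicate 2 had 2 peaks. The first, of 572 bp, had its summit at the 5′ end and a fold enrichment of 20.3, at the 83.8th percentile of its list. The second, of 334 bp, lay upstream of it (chr8:8661780-8662113) with a fold enrichment of 10.2, at the 51.7th percentile.

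The body of *Efnb2* held 4 further regions of both libraries. The pair closest to each other, at 9.68 and 10.8 kb from the 5′ end (chr8:8651218-8651973 and chr8:8649711-8650989), had fold enrichments of 29.6 and 31.1 in replicate 3 and of 12.2 and 16.9 in replicate 2. The region at 29.9 kb (chr8:8631004-8631648) had 19.5 in replicate 3 and 17.6 in replicate 2. In replicate 2 it was the strongest distal region of the gene, while in replicate 3 it came after 3 others. The region at 2.23 kb (chr8:8658864-8659224) was weaker in both, with 9.63 and 6.78. Another 8 distal regions had a replicate 3 peak only, of which that at chr8:8613827-8614080 lay 3155 bp past the 3′ end and the others in the body. The strongest of them, at 13.1 kb, had a fold enrichment of 20.3 and no replicate 2 peak, although among the 2831 peaks of replicate 3 whose fold enrichment differed from it by up to 10%, 81.0% had one. Regions of both libraries covered 10.0% of the *Efnb2* body, at the 91.6th percentile of all protein-coding genes, whose median was 0.0922%. The number of shared distal regions per 10 kb of window was at the 93.4th percentile, in a ranking where 60.7% of genes had none. The nearest end of another gene, that of *Arglu1*, lay 4.08 kb from the 5′ region.

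*Ephb4*, the venous receptor that binds ephrin-B2, had its region of both libraries at the 5′ end. The gene spans 24.4 kb (chr5:137350109-137374522, plus strand), and the region lay at chr5:137349512-137350606. The fold enrichment was 23.2 in replicate 3 (78.0th percentile of the list) and 10.8 in replicate 2 (55.4th percentile). An end of the noncoding RNA gene *Gm52791* lies inside this region, so the peak cannot be given to *Ephb4* alone. A second region of both libraries lay 1066 bp upstream (chr5:137348613-137349043), with 8.36 and 5.42. Another lay beyond the 3′ end, 1072 bp outside the gene (chr5:137375594-137376018), with 21.0 in replicate 3 and 7.66 in replicate 2. In replicate 3 it was nearly as strong as the 5′ end. No region of both libraries lay within the body beyond the 5′ region, where replicate 3 alone had 3 peaks with fold enrichments of 5.86 to 7.16. Unlike *Efnb2*, *Ephb4* thus had its shared distal regions in the flanks, both just past the 1 kb limit. With gene ends taken as within 2.5 kb, both would count as gene-end regions. The upstream one lay 1.009 kb from an end of *Gm52791* and the other 2.62 kb from an end of the neighbouring gene *Zan*. One peak of replicate 2, 1659 bp upstream with a fold enrichment of 4.74, met no replicate 3 peak. It was 1 of 226 such peaks in the whole replicate 2 list.

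*Epha2*, a receptor for class A ephrins, was marked at its 5′ end and in a cluster within its body. The gene spans 28.2 kb (chr4:141301221-141329384, plus strand). At the 5′ end (chr4:141301025-141301836) the fold enrichment was 23.9 in replicate 3 and 11.5 in replicate 2. The cluster held 3 regions of both libraries in 2293 bp (chr4:141309188-141311480), with summits at 8.72, 9.29, and 10.0 kb. Their fold enrichments were 16.5, 34.2, and 23.5 in replicate 3 and 10.1, 7.46, and 7.46 in replicate 2. The libraries ordered the cluster and the promoter differently. In replicate 3 the middle region was the strongest of the gene, above the 5′ end, and in replicate 2 the 5′ end was above all 3. Shared regions covered 9.09% of the body (90.6th percentile), and the nearest end of another gene, that of the noncoding RNA *Gm13056*, lay 21.2 kb from the 5′ region.

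**Figure D2:**
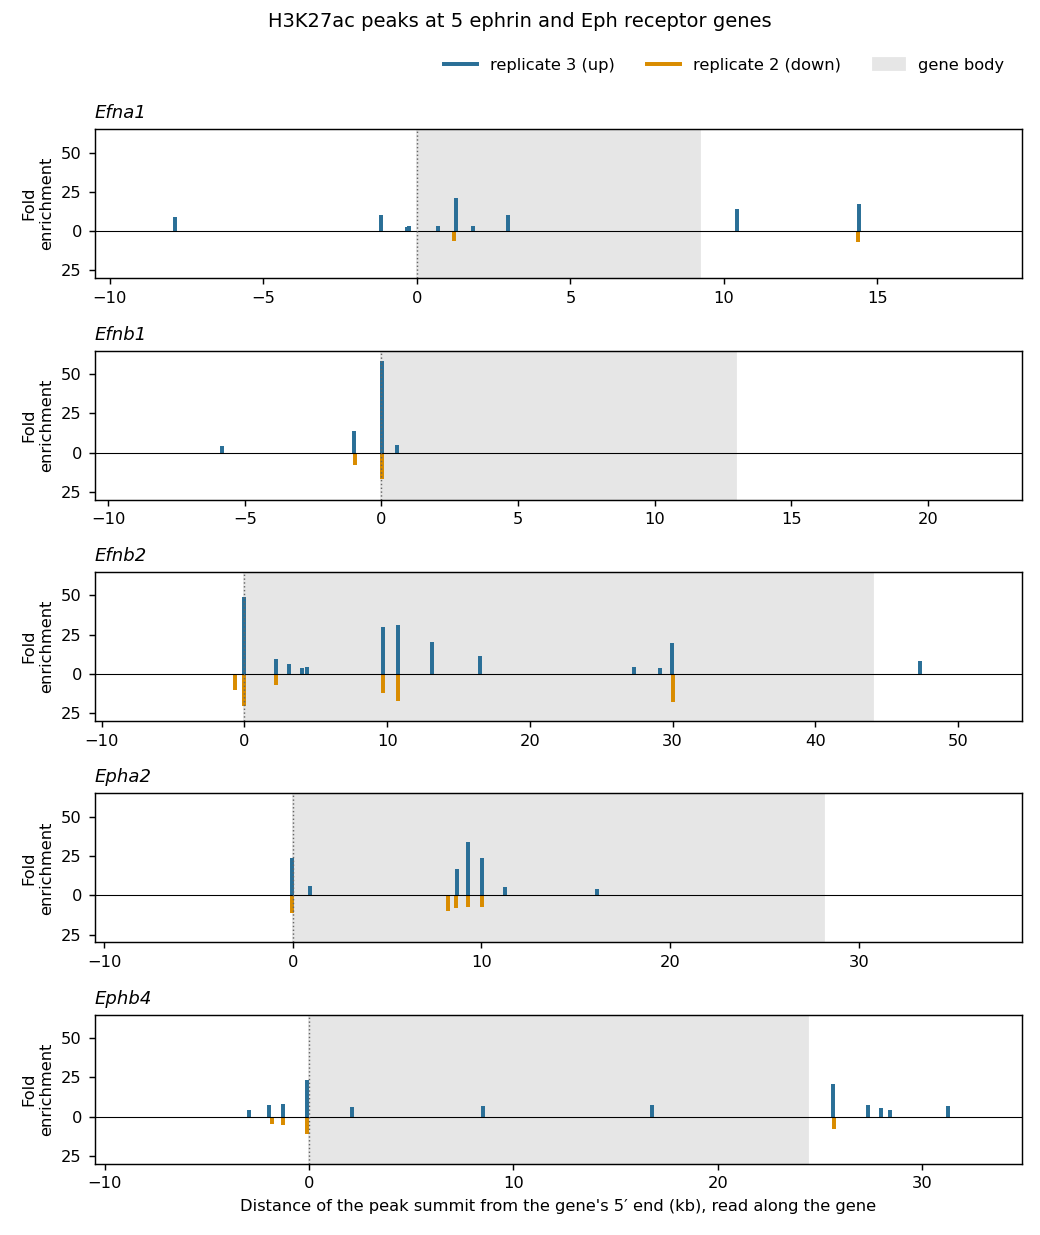
Fold enrichment of each H3K27ac peak (y axis, replicate 3 drawn upward and replicate 2 downward) against the distance of its summit from the 5′ end of the gene in kb (x axis, read along the gene) for the 5 genes with a gene-end region of both libraries. Grey marks the gene body, and the cluster near 10.0 kb in *Epha2*, the pair at 9.68 and 10.8 kb in *Efnb2*, and the region past the 3′ end of *Ephb4* carry bars in both directions.

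*Efnb1*, the X-linked class B ephrin, had the highest fold enrichment of the 10 genes in replicate 3, while in replicate 2 *Efnb2* was higher. The gene spans 12.96 kb (chrX:99136061-99149022, plus strand), and its 5′ region (chrX:99135572-99136423) had 58.3 in replicate 3, at the 93.6th percentile, and 16.9 in replicate 2, at the 76.6th. A second region of both libraries lay 765 bp upstream (chrX:99134876-99135296), with 13.9 and 8.13. It had no distal region of both libraries, and replicate 3 alone had 1, 5713 bp upstream, with 4.23. The mark of both libraries at *Efnb1* was therefore limited to the surroundings of the 5′ end within this window.

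*Efna1*, a class A ephrin first known as a product of endothelial cells treated with TNF, differed from the others in where its peak lay. The gene spans 9.22 kb (chr3:89271730-89280951, minus strand). The region of both libraries (chr3:89279442-89279975) had its summit 1.26 kb inside the gene and covered the inner RefSeq start rather than the outer one. Its fold enrichment was 20.8 in replicate 3 (75.8th percentile) and 6.10 in replicate 2 (15.3rd percentile). It came within 976 bp of the outer end through the replicate 3 peak, and by the replicate 2 peak alone it would lie beyond 1 kb. Around the outer start, replicate 3 alone had peaks with fold enrichments of 2.74 to 10.6, and the 3 closest to it were at or below the 0.794th percentile of the list. A further region of both libraries, 4922 bp past the 3′ end (chr3:89266350-89266808), with 17.1 and 7.15, lay 0.271 kb from an end of *Dpm3*, and a replicate 3 peak 993 bp past the 3′ end lay on an end of *Slc50a1*. These lie close to other genes and cannot be given to *Efna1*.

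*Ephb3* and *Epha4* had a 5′ end peak in 1 library. *Ephb3*, a receptor for class B ephrins, spans 18.7 kb (chr16:21204620-21223309, plus strand), and its only peak (chr16:21204357-21204844) had a fold enrichment of 19.9 in replicate 3, at the 74.8th percentile. Among the 3065 peaks of replicate 3 that came within 10% of this value, 78.8% had a replicate 2 peak, and this one did not. *Epha4*, which can bind ephrins of both classes, spans 148 kb (chr1:77367182-77515107, minus strand). Its replicate 3 peak at the 5′ end (chr1:77514946-77515307) had 12.05, a level at which 35.3% of 4188 replicate 3 peaks had a replicate 2 peak. Its only replicate 2 peak, of 150 bp, lay 106 kb into the gene with a fold enrichment of 4.74, and replicate 3 had none there. For these genes the libraries did not share a region, and where a list has no peak the mark may still be present below the calling threshold.

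*Efna5*, *Ephb1*, and *Ephb2*, known best from the wiring of the nervous system, had no gene-end peak. *Efna5* spans 278 kb (chr17:62602957-62881317, minus strand). Its nearest regions lay upstream, with 11.6 in replicate 3 only at 1597 bp and with 7.81 in replicate 3 and 6.10 in replicate 2 at 2959 bp (chr17:62884276-62884548). Deep in its body replicate 3 had 2 peaks, with 10.7 and 4.43. *Ephb2* spans 189 kb (chr4:136647536-136836326, minus strand) and had 1 peak, in replicate 3, with 4.23 at 46.4 kb. *Ephb1* spans 433 kb (chr9:101922128-102354693, minus strand) and was the longest of the 10 genes. Its whole window held no peak of either library, and these 3 longest genes together held 5 of the 55 regions.

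**Figure D3:**
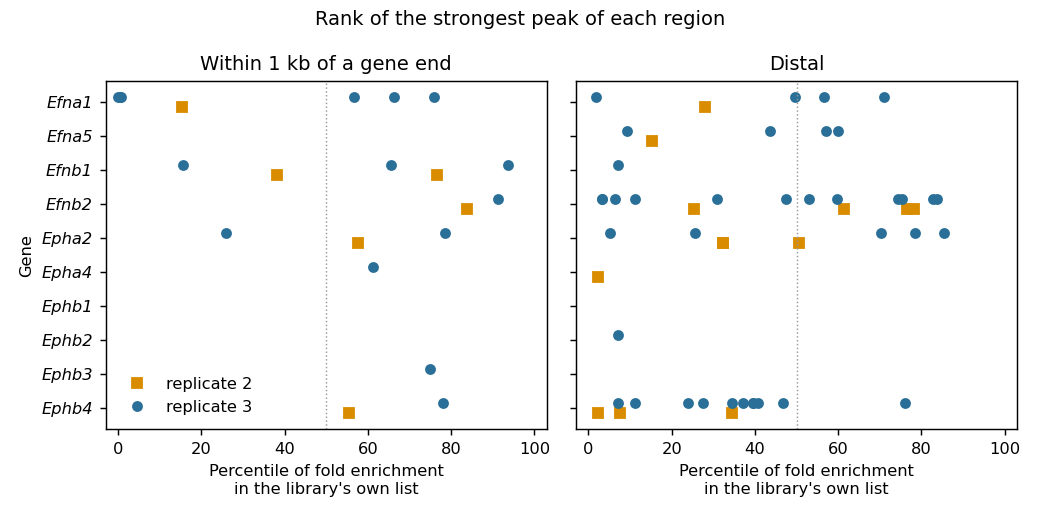
Percentile of the fold enrichment of the strongest peak of each region in its library's own list (x axis) for each gene (y axis), at gene ends (left) and in distal regions (right), with replicate 2 as squares and replicate 3 as circles. At gene ends the highest points of both libraries belonged to *Efnb1* and *Efnb2*, and the squares lay to the left of the circles of the same region.

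Ranked among other genes, the gene-end peaks of *Efnb1* and *Efnb2* stood somewhat above the middle, and those of the other members stood low. Among the 11792 protein-coding genes with a gene-end region in replicate 3, the highest fold enrichment of *Efnb1* was at the 69.3rd percentile and that of *Efnb2* at the 60.7th. *Epha2*, *Ephb4*, *Efna1*, and *Ephb3* lay between the 26.6th and the 31.5th, and *Epha4* at the 15.9th. In replicate 2, with 9651 such genes, *Efnb2* was at the 63.5th percentile, *Efnb1* at the 52.7th, *Epha2* at the 29.3rd, *Ephb4* at the 27.2nd, and *Efna1* at the 4.52nd. The first place thus passed from *Efnb1* in replicate 3 to *Efnb2* in replicate 2. *Epha2* and *Ephb4*, with 23.9 and 23.2 in replicate 3 and 11.5 and 10.8 in replicate 2, were close to each other in both. With 1 value per library, no spread within a library could be given, so neighbours in this order cannot be told apart.

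Over the 17 regions with a peak of both libraries, Spearman's rank correlation between the fold enrichments of the 2 libraries was 0.67, and over all 24199 such regions it was 0.84. The regions share the libraries and the peak caller, and several share a gene, so these are descriptions. The region of *Epha2* at 9.29 kb ranked at the 85.4th percentile in replicate 3 and at the 32.3rd in replicate 2. That of *Efnb2* at 29.9 kb stood at the 74.3rd and the 78.1st, and it was the only one of the 17 with the higher percentile in replicate 2.

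**Figure D4:**
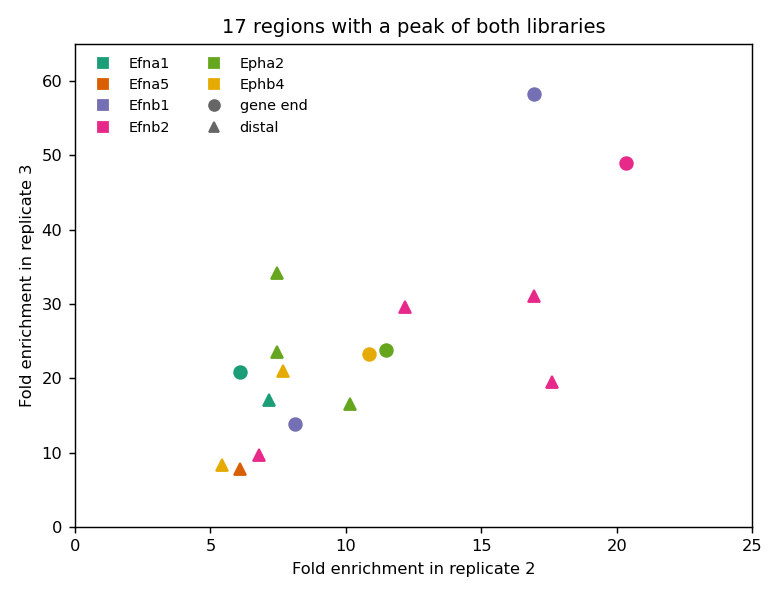
Fold enrichment in replicate 3 (y axis) against that in replicate 2 (x axis) for the 17 regions with a peak of both libraries, coloured by gene, with circles for gene ends and triangles for distal regions. The 5′ regions of *Efnb1* (16.9 and 58.3) and *Efnb2* (20.3 and 48.9) lie apart from the other 15.

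Genes outside the family with the most similar values were named by the distance over 4 values, the highest fold enrichments at the gene ends and in the distal window of each library on the log2(value + 1) scale. They were *Tubd1*, *Baz2b*, and *Prcp* for *Efnb2* (distances of 0.17 each), *Tmem107*, *Smad1*, and *Pfdn6* for *Ephb4* (0.15 to 0.21), *Knl1*, *Sh2b1*, and *Mxd3* for *Epha2* (0.064 to 0.15), and *Gm38664*, *Mthfd2l*, and *Slc31a2* for *Efna1* (0.14 to 0.23). *Baz2b* had gene-end values of 21.7 and 50.8 and *Smad1* of 10.8 and 24.2 in replicates 2 and 3.

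Of the 12 other ephrin and Eph genes, only *Epha7* had a gene-end region of both libraries (background, 44.1%). The region lay at chr4:28812725-28813185, with 32.5 in replicate 3 and 10.8 in replicate 2. The gene-end fold enrichment of *Epha7* in replicate 3 was above that of *Ephb4* or *Epha2*, while *Epha7* had no distal peak. *Efna3*, *Efna4*, *Efnb3*, and *Epha1* were marked at a gene end by replicate 3 alone, at fold enrichments of up to 5.90, 7.49, 7.88, and 5.70. The other 7 had none, and 5 of these, *Epha3*, *Epha5*, *Epha8*, *Epha10*, and *Ephb6*, named after their values had been seen, had no peak in the window at all. Distal regions of both libraries lay at 4 of the 12 genes (background, 39.3%). The strongest, 7528 bp past the 3′ end of *Epha1* with 157.6 in replicate 3 and 40.9 in replicate 2, lay on an end of *Zyx*. Those of *Efna2* and *Epha6* lay on ends of *Fam174c* and *Arl6*. The 12 genes were named with the 10 members' results in view, and the difference between the lists was not tested.

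Of 32 genes that act with Eph receptors or ephrins inside the cell, such as adaptors and Src family kinases, 22 had a gene-end region of both libraries, or 68.8%, against 44.1% of all protein-coding genes. The highest fold enrichments in replicate 3 were those of *Adam10*, a protease that cuts ephrins from the membrane, with 122.9 (35.9 in replicate 2), and *Itsn1*, an exchange factor for Cdc42, with 98.3 (23.5). *Nck1* and *Crkl*, adaptors that bind activated receptors, had 98.01 and 92.9 (33.2 and 25.02). *Sdcbp*, the syntenin that binds the tails of class B ephrins, had 82.2 (25.6), and *Rasa1*, a Ras GTPase-activating protein, had 74.8 (42.0). Each of these values was above the 58.3 of *Efnb1* in replicate 3. *Arhgef15*, *Tiam1*, *Nck2*, and *Pick1* had a gene-end region in replicate 3 only, and *Arhgef16* had no peak in its window. These 5 genes were picked after their values had been seen. Most of the 32 genes are expressed in many tissues, and the list was not tested against others.

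**Figure D5:**
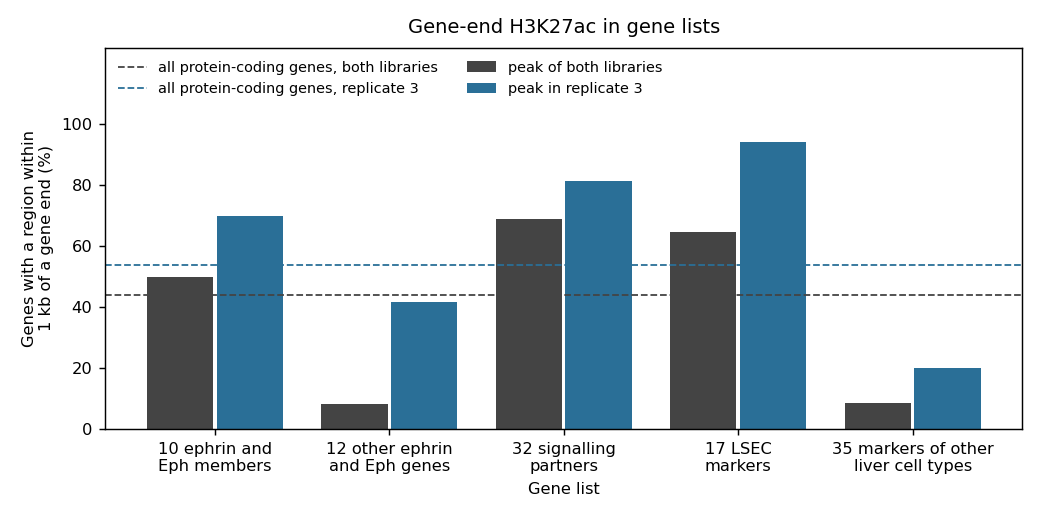
Share of genes with an H3K27ac region within 1 kb of a gene end (y axis, percent) in 5 gene lists (x axis), with a peak of both libraries (dark bars) or in replicate 3 (blue bars). Dashed lines give the shares of all protein-coding genes, 44.1% and 53.9%, and the 10 members lie near the lower line with 5 genes and above the upper one with 7.

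Farther from the genes, regions were counted in the whole stretch up to the nearest protein-coding neighbours, a window chosen after seeing the data. For *Efnb2*, whose stretch runs over 3561 kb between *Slc10a2* and *Arglu1*, 7 regions of both libraries lay outside the 10 kb flanks. The strongest of them (chr8:8452099-8452895), 164 kb beyond the 3′ end, had 88.6 in replicate 3 and 19.8 in replicate 2. In replicate 3 it was above every peak at the 10 genes themselves. *Epha2* had 4 such regions, the strongest 27.6 kb upstream with 38.2 and 10.2 (chr4:141272720-141273611). *Efnb1* had 3 and *Ephb3* 2, with the strongest 144 and 199 kb beyond the 3′ end and values in replicate 3 of 35.8 and 68.1. *Ephb1*, without a peak in its own window, had 2, the stronger of them 670 kb beyond its 3′ end with 92.2 and 25.1. *Efna5* and *Epha4* had 1 each, 3589.5 and 1807.4 kb beyond the 3′ end, with 20.1 and 15.6 in replicate 3. *Efna1*, *Ephb2*, and *Ephb4* had none. Regions that reach the end of a bounding neighbour, or lie on noncoding genes, were not left out of these counts. Beyond the 3′ end, the stretch of *Ephb1* runs up to *Ppp2r3a* and that of *Ephb3* up to *Vps8*. That of *Efna5* runs up to *Nudt12* and that of *Epha4* up to *Slc4a3*. The regions named there may lie on the ends of those neighbours and cannot be given to *Ephb1*, *Ephb3*, *Efna5*, or *Epha4*. Which gene any of the regions in these stretches acts on was not measured.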

How the data were processed

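H3K27ac ChIP-Seq peaks of 2 mouse LSEC libraries were analysed as deposited. Per the labels, the build was mm10, and the submitters' processing notes name cutadapt 0.4.4, BWA 0.7.17, Picard 1.67, MACS2 2.0.10, and bedtools 2.27.1 without their roles. The authors deposited 1 list per library, with a fold enrichment (a ratio over background), the −log10 p-value and q-value, and a score. The score is 10 times the deposited −log10 q, cut to a whole number, and was not used. No q-value exceeded 0.00907 (replicate 2) or 0.00981 (replicate 3). Whether the inputs entered the calls is not given in the sources used here. The records describe sonication and a ligation kit, and the paper's methods a tagmentation-based assay. No reads were analysed here, so depth is unknown, a deeper library can give more and wider peaks, and fold enrichments were ranked within a list only.

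Overlapping peaks of both libraries (1 bp or more) were merged into regions and placed against GRCm38.p6 gene bodies, the same assembly as mm10, within 10 kb on each side. A region belonged to the gene ends if any part lay within 1 kb of either end. Exons, introns, and UTRs were not told apart. The 5′ ends follow the strand of the RefSeq promoter table. Wilson intervals (95%) cover the counting of peaks only. With 1 condition, no test was made. Percentiles are descriptions. The region assignment was tested on simulated data.

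The genes and lists were chosen with earlier results of these data known. Named were all 10 members, other ephrin and Eph genes with a gene-end peak, the 6 signalling partners with the highest replicate 3 fold enrichment among those with a gene-end region of both libraries, markers of other cell types with such a region, and the 3 most similar genes for each member with a gene-end and a distal region of both libraries. Other ephrin and Eph genes, signalling partners, and LSEC markers without a gene-end region of both libraries, and genes next to a region, were named after their values had been seen. The alternatives were a stricter q-value, equal numbers of peaks, reciprocal overlap, other windows, joined regions, ranking by p-value, and each library alone. Scripts ran in Python 3.11.15 with pandas 2.3.3, numpy 2.4.6, and scipy 1.17.1, and figures were drawn with matplotlib 3.10.9.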

Additional observations from a re-analysis of the deposited data

How the results depend on the processing

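No paired analysis was possible because only 1 group had peak lists and no result comes from a test. The 5 genes with a gene-end region of both libraries became 0 with a reciprocal overlap of at least 50%, since the replicate 2 peaks there were under 50% as wide as those of replicate 3, and ranged from 4 (without replicate 3, where *Efna1* was lost) to 7 (without replicate 2). The 5 genes with a distal region of both libraries became 2 in the gene body only and 4 with gene ends within 2.5 kb. The count lay between 6 and 7 when either library was left out. The 11 distal regions of both libraries became 6 with reciprocal overlap, 7 in the gene body only, 25 with 50 kb on each side, 6 with regions within 1 kb joined, and, chosen after seeing the data, 30 up to the nearest protein-coding neighbours. Replicate 2 alone gave 15 and replicate 3 alone gave 38. The 32.1% of replicate 3 peaks that met replicate 2 became 71.4% when both lists were cut to equal numbers by p-value and 11.3% with reciprocal overlap. The count of other ephrin and Eph genes with a gene-end region of both libraries went from 1 to 3 within 2.5 kb. Except where an alternative itself removes or joins peaks, the cause was not tested. Depth is unknown, which limits what a missing peak can show.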
